A study of Homo sapiens with 4 samples.

Results

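The genes described here write and maintain repressive marks on chromatin. They comprise the DNA methyltransferases DNMT1, DNMT3A and DNMT3B, the Polycomb repressive complex 2 (PRC2) genes EZH2, EZH1, SUZ12 and EED, and the Polycomb repressive complex 1 (PRC1) genes BMI1, RING1 and RNF2. They were chosen by symbol, for their known function, with earlier results of these data known. All 10 were found among the 16370 genes listed for either parental line. RNA sequencing was used to measure expression in the human hepatoma lines Hep3B and Huh7, grouped as hepatocellular carcinoma cells (HCC), and in Hep3B-C and Huh7-C, stem-like cultures derived from them and grouped as hepatic cancer stem cells (HCSC). No treatment or genetic change is named for any culture, and how the stem-like cells were grown is not described in the sources used here. Each culture was represented by 1 library, so within a parental line the group, the culture and the library preparation cannot be told apart.

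DNA methylation is the addition of a methyl group to cytosine, mostly where cytosine is followed by guanine (CpG). DNMT1 copies the mark onto the new strand after replication, and DNMT3A and DNMT3B place it at new sites. PRC2 methylates histone H3 at lysine through its catalytic subunit EZH2 or EZH1, which need SUZ12 and EED, while PRC1 attaches ubiquitin to histone H2A through RING1 or RNF2, with BMI1 as a partner that raises their activity. Both systems keep developmental genes silent, and EZH2 and BMI1 are known from work on self-renewal of stem cells and on liver cancer.

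Promoter sequences were taken from RefSeq (GRCh38.p14) to show the CpG content of the genes whose levels are described below. RefSeq gave 17 promoters for the 10 genes, and the 250 bases upstream of a start were read for each. Across 27305 such promoters the median was 11 CpG. Members with 34 CpG each were SUZ12, RING1 and RNF2, more than in 93.4% of all promoters. Higher counts were found in the windows of EZH2 (38 and 39) and BMI1 (35 and 54). The windows of DNMT1 and DNMT3B lay inside the span that GENCODE gives these genes, at internal starts, and are not described further. Some windows of DNMT3A, EZH2 and BMI1 also lay inside the span of their gene, and those of RNF2 and EED lay partly inside. The sequences of SUZ12 and RING1 are printed because these genes have the same CpG count and moved in opposite directions in Hep3B-C, and that of EZH1 because it had the lowest level. Each is given 5′ to 3′ on the strand of the gene, with every CpG in capitals.
SUZ12, chr17:31936757-31937006, plus strand: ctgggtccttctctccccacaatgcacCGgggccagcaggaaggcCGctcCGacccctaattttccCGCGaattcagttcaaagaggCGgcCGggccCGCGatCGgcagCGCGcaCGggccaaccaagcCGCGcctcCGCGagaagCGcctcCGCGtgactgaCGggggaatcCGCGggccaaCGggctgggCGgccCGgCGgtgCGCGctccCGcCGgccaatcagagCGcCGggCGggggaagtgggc
RING1, chr6:33208250-33208499, plus strand: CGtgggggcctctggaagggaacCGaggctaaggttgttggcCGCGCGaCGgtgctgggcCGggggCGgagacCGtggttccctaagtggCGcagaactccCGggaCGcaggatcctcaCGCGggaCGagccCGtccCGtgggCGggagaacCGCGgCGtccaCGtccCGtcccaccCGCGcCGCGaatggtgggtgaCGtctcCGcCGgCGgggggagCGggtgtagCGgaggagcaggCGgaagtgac
EZH1, chr17:42745041-42745290, minus strand: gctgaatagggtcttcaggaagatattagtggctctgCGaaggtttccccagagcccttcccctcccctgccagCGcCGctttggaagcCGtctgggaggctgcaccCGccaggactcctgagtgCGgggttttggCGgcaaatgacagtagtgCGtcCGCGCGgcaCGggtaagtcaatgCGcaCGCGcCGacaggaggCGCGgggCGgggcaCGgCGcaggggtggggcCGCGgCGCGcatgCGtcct
Words bound by E2F factors, the regulators of S phase genes (TTTCCCGC, TTTGGCGC, TTTCGCGC or TTTGCCGC, either strand), were present once in the promoters of SUZ12 and EZH1 and in no other window of the members. They were present in 2.79% of all promoters. Since the windows of DNMT1 and DNMT3B lay at internal starts, no absence is shown for other starts of these genes. A match is a description of the letters and not of binding.

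Total gene counts ran from 2896418 in Hep3B to 4641927 in Hep3B-C, so that 3 counts corresponded to levels between 0.646 and 1.04 CPM (counts scaled to a common library total). Member counts ran from 15 (EZH1 in Hep3B-C) to 1272 (DNMT1 in Hep3B), all above that floor. All intervals below are 95% Poisson intervals of the counts, and cover counting error only. Summed levels of markers of other cell types were low beside those of hepatocyte markers. The summed level of 5 leukocyte markers was between 0.661 and 3.45 CPM, with PTPRC and CD3E at 0 in all 4 libraries. For 6 fibroblast markers it was between 10.8 and 45.2 CPM, and for 5 endothelial markers between 2.80 and 21.5 CPM. Single markers of these lists changed in the Huh7 pair. PDGFRB, a receptor of mesenchymal cells, went from 186 counts in Huh7 to 2 in Huh7-C, the collagen gene COL3A1 from 0 to 58 and PECAM1, an endothelial adhesion molecule, from 17 to 93, and their part in the results for Huh7-C was not tested. These 3 were named after their values were seen. Of the hepatocyte markers, ALB, the main plasma protein of the liver, had 56598, 85731, 482 and 1156 counts in Hep3B, Hep3B-C, Huh7 and Huh7-C. AFP, the fetal counterpart of albumin, had 16175, 4201, 26 and 12 counts in the same order, so it was nearly absent from the libraries labelled Huh7 and Huh7-C, although Huh7 is known to secrete it. Some other hepatocyte markers had more counts in Huh7 than in Hep3B. SERPINA1, which encodes antitrypsin, had 29292, 124896, 183846 and 74907 counts, APOA1, of high-density lipoprotein, 1333, 10986, 6125 and 1601, and the hepatocyte transcription factor HNF4A 585, 1362, 1726 and 1159.

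**Figure D1:**
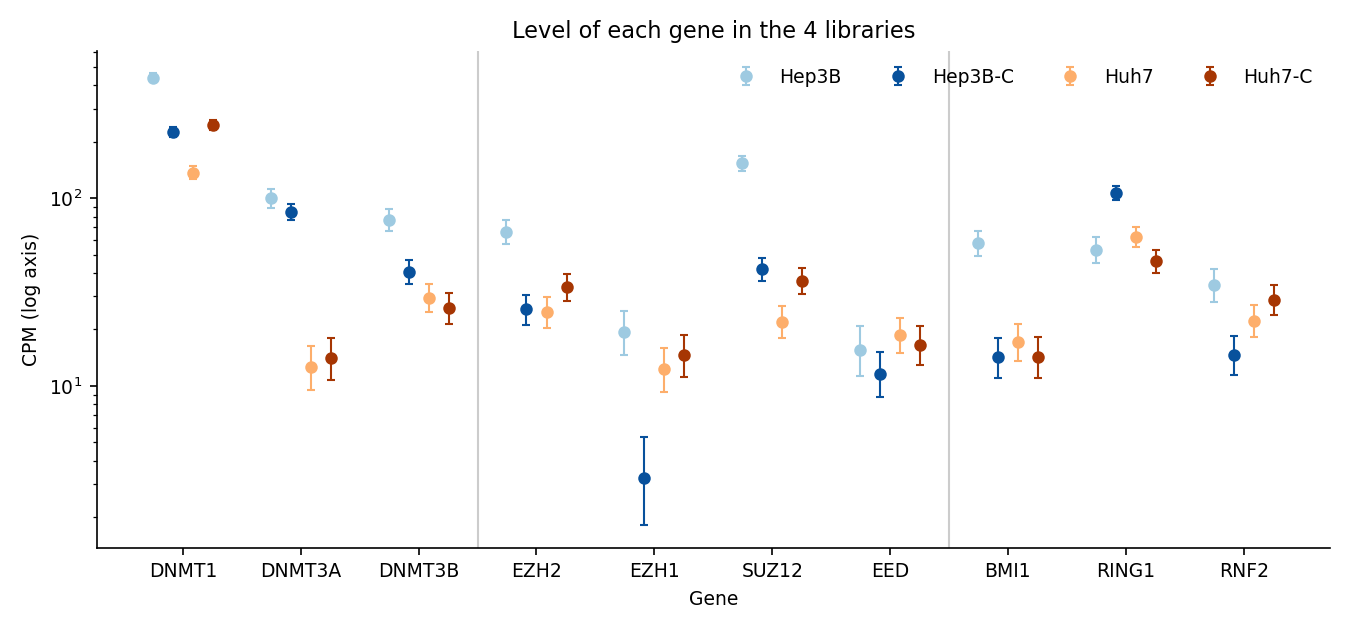
Level of each gene in the 4 libraries, in CPM on a log axis, with 95% Poisson intervals of the count; grey lines divide the DNA methyltransferases, PRC2 and PRC1. Hep3B had the highest level of 8 of the 10 genes, and EZH1 in Hep3B-C was the lowest value, at 3.23 CPM.

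Levels were compared between genes per length, as RPKM (the same scaled by gene length). DNMT1 was the most abundant member in Hep3B (81.3 RPKM) and in Huh7-C (45.4 RPKM), whereas RING1 came first in Hep3B-C (61.5 RPKM) and in Huh7 (35.9 RPKM). EZH1 was last in every library, at 4.16 RPKM in Hep3B, 0.696 in Hep3B-C, and 2.66 in Huh7 against 3.13 in Huh7-C. In that order of levels, neighbours were often not distinct. The interval of the ratio of neighbours lay above 1 for 6 of 9 neighbouring pairs in Hep3B, 5 in Hep3B-C, and 3 in Huh7 against 4 in Huh7-C. For example, EZH2, DNMT3B and SUZ12 stood at 9.55, 9.39 and 9.38 RPKM in Hep3B-C and could not be ordered.

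Stem-like cultures were compared with their parental lines to ask which of these genes were altered in the stem-like cultures. Fold-changes are ratios of counts per total gene count with 0.5 added to each count, and p-values are from the Audic-Claverie test, which covers sampling noise of a pair of libraries and not variation between cultures. Genes with an FDR (Benjamini-Hochberg, over all genes) of 0.01 or less and a log2 fold-change of 1 or more in size were called. Of the 10 genes, 1 was called up and 5 down in Hep3B-C, where 13.2% of all 15480 genes were called up and 30.4% down. With TMM library sizes the calls of all genes went from 2043 up and 4708 down to 3056 and 3134, and those of the members to 1 up and 3 down. None of the members was called in Huh7-C, where 8.33% of all 14807 genes were called, 4.19% up and 4.15% down. The median log2 fold-change of the members was -1.10 for Hep3B-C and 0.20 for Huh7-C, beside -0.55 and 0.06 for all genes with at least 20 counts. The whole distribution was thus shifted between Hep3B-C and Hep3B, which does not tell which library of the pair was the unlike one. Hep3B had the lowest total gene count (2896418), although the paper lists the most RNA reads for it. The median of all genes was -0.246 for Huh7 against Hep3B and 0.227 for Huh7-C against Hep3B-C. What part this has in the high levels of members in Hep3B was not tested. The called genes are also given relative to the median of all genes below. In addition, fold-changes in Hep3B-C fell with gene length (Spearman -0.434 across 11338 genes, which are not independent) and rose with GC content of the transcript (Spearman 0.631), as the plot against length and GC content shows. In Huh7-C, fold-changes rose with gene length (Spearman 0.315 across 11060 genes), and the Spearman with GC content was -0.0589. Values with these trends removed are therefore set beside the calls.

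**Figure D2:**
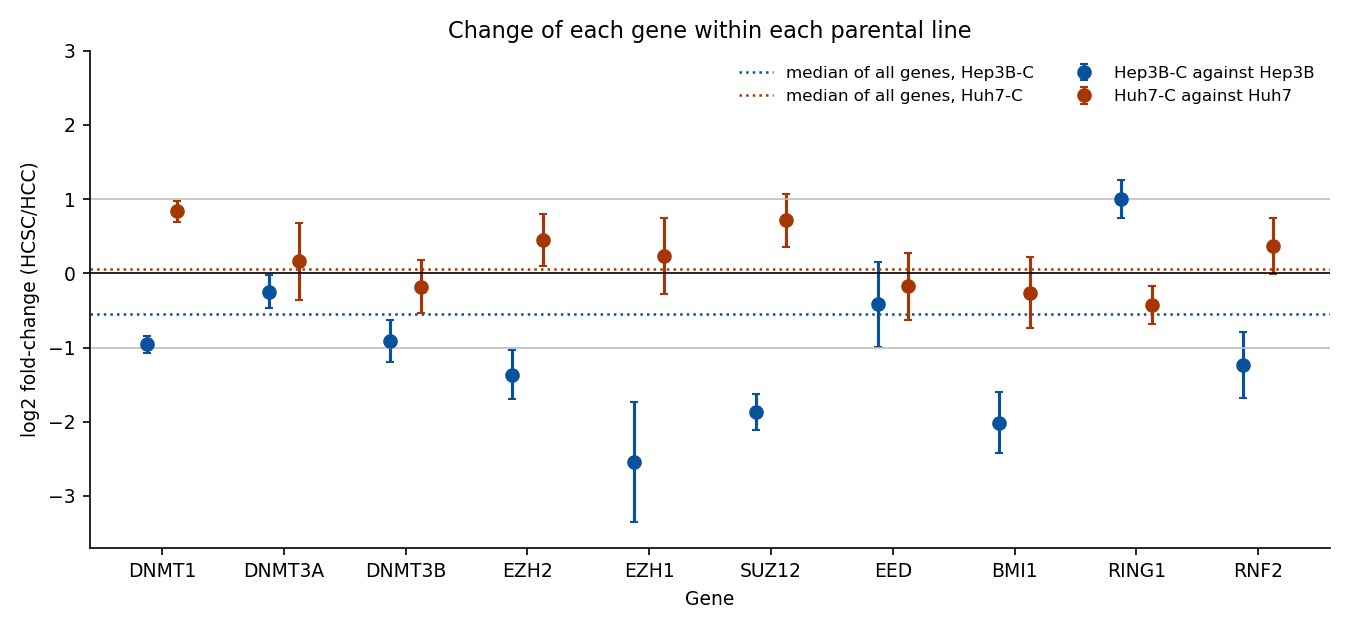
Log2 fold-change of each gene in Hep3B-C against Hep3B and in Huh7-C against Huh7, with bars of the 95% Poisson interval, grey lines at the threshold of 1, and dotted lines at the median of all genes in each comparison. The Hep3B-C values run from -2.55 (EZH1) to 1.004 (RING1), while those in Huh7-C all lie between -0.43 and 0.84.

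None of the 3 DNA methyltransferases was called in Hep3B-C or in Huh7-C, and each had a value below 0 in Hep3B-C that turned sign under another scaling. DNMT1 (Entrez 1786; GRCh38 chromosome 19, 10133345 to 10231286, on the minus strand) had 1272 counts in Hep3B (439 CPM), 1050 in Hep3B-C (226 CPM), 622 in Huh7 (137 CPM) and 1062 in Huh7-C (245 CPM). Its level was thus highest in Hep3B and lowest in Huh7, and the stem-like cultures lay between. The log2 fold-change was -0.96 in Hep3B-C (SE 0.060, FDR 4.8e-56) and 0.84 in Huh7-C (SE 0.073, FDR 4.3e-30), both past the FDR but short of the fold threshold. Relative to the median of all genes the former was -0.40. With the length trend removed it was 0.25, and with GC and length trends removed -0.67.

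DNMT3A (Entrez 1788; chromosome 2, 25227855 to 25342590, on the minus strand) differed by parental line more than by culture. It had 290 counts in Hep3B (100.1 CPM), 392 in Hep3B-C (84.4 CPM), 57 in Huh7 (12.6 CPM) and 61 in Huh7-C (14.1 CPM). Neither HCSC line differed from its parent past the FDR (log2 fold-change -0.25, SE 0.11, FDR 0.044, and 0.16, SE 0.26, FDR 0.77). DNMT3B (Entrez 1789; chromosome 20, 32762385 to 32809356, on the plus strand) had 222 counts in Hep3B (76.6 CPM), 189 in Hep3B-C (40.7 CPM), 134 in Huh7 (29.5 CPM) and 113 in Huh7-C (26.1 CPM). It was lower in Hep3B-C by a log2 fold-change of -0.91 (SE 0.14, FDR 5e-10), within the fold threshold, and -0.18 in Huh7-C (SE 0.18, FDR 0.54). The sign in Hep3B-C depended on scaling for both genes. With TMM library sizes DNMT3A was at 0.24, and with the length trend removed DNMT3B was at 0.07.

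Within a library the level of DNMT3A per that of DNMT3B, each per length, does not depend on the library total. It was 1.29 in Hep3B (interval 1.09 to 1.54), 2.05 in Hep3B-C (1.73 to 2.44), 0.421 in Huh7 (0.309 to 0.574) and 0.534 in Huh7-C (0.391 to 0.730). DNMT3A was therefore the more abundant de novo enzyme in the Hep3B cultures and DNMT3B in the Huh7 cultures. The level of DNMT1 per that of DNMT3B was 4.60 in Hep3B, 4.46 in Hep3B-C, and 3.73 in Huh7 against 7.55 in Huh7-C. In Huh7-C it was 2.02 times as large as in Huh7 (interval 1.55 to 2.65). These ratios, and those below, were chosen after the counts had been seen and are given without a test.

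Of the PRC2 genes, EZH2, EZH1 and SUZ12 were called down in Hep3B-C and none was called in Huh7-C. EZH2 (Entrez 2146; chromosome 7, 148807383 to 148884321, on the minus strand), the catalytic subunit of dividing cells, had 192 counts in Hep3B (66.3 CPM), 119 in Hep3B-C (25.6 CPM), 112 in Huh7 (24.7 CPM) and 146 in Huh7-C (33.7 CPM). Hep3B stood above the other 3 libraries. The log2 fold-change was -1.37 in Hep3B-C (SE 0.17, FDR 4.6e-16) and 0.45 in Huh7-C (SE 0.18, FDR 0.045). Relative to the median of all genes the Hep3B-C value was -0.82, with TMM library sizes it was -0.89, and with GC and length trends removed -0.37, none of them past the threshold. With the length trend alone removed it was -1.06 (FDR 6e-10), still called.

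SUZ12 (Entrez 23512; chromosome 17, 31937018 to 32001045, on the plus strand), a scaffold of the complex, had 446 counts in Hep3B (154 CPM), 195 in Hep3B-C (42.0 CPM), 100 in Huh7 (22.0 CPM) and 157 in Huh7-C (36.2 CPM). The Hep3B library again stood apart from the rest. It fell by 1.87 on the log2 scale in Hep3B-C (SE 0.12, FDR 3.6e-56) and was 0.71 higher in Huh7-C (SE 0.18, FDR 0.00053), which is short of the fold threshold. The Huh7-C value was 0.54 with GC and length trends removed (FDR 0.014). The transcript of SUZ12 has the lowest GC content of the members, at 38.03%, and with GC and length trends removed its Hep3B-C value was 0.0028 (FDR 1.0). Relative to the median of all genes it was -1.32. Its pseudogene SUZ12P held at most 7 counts in a library, and how reads with several matches were assigned is not stated.

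EZH1 (Entrez 2145; chromosome 17, 42700275 to 42745049, on the minus strand), the catalytic subunit of resting cells, had 56 counts in Hep3B (19.3 CPM), 15 in Hep3B-C (3.23 CPM), 56 in Huh7 (12.3 CPM) and 63 in Huh7-C (14.5 CPM). Hep3B-C was the low library, and the other 3 lay within 12.3 to 19.3 CPM. The log2 fold-change of -2.55 in Hep3B-C (SE 0.41, FDR 1.4e-11) was the most negative of the members. It was -1.99 relative to the median of all genes and -1.73 with GC and length trends removed, and EZH1 was the 1 member still called after that correction, though not at an assumed coefficient of variation of 0.4 between cultures (FDR 0.1). In Huh7-C the log2 fold-change was 0.23 (SE 0.26, FDR 0.64). EED (Entrez 8726; chromosome 11, 86244544 to 86278813, on the plus strand), which reads the mark that PRC2 writes, had 45 counts in Hep3B (15.5 CPM), 54 in Hep3B-C (11.6 CPM), 85 in Huh7 (18.7 CPM) and 72 in Huh7-C (16.6 CPM). It did not pass the FDR in either pair (log2 fold-change -0.42, SE 0.29, FDR 0.2, and -0.17, SE 0.23, FDR 0.68).

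Subunits of PRC2 were also set against each other within libraries. The level of SUZ12 per that of EED, each per length, was 5.32 in Hep3B and 1.94 in Hep3B-C, and 0.631 in Huh7 and 1.17 in Huh7-C. The level of EZH2 per that of EZH1 was 5.93 in Hep3B (interval 4.41 to 7.99), 13.7 in Hep3B-C (8.02 to 23.5), 3.46 in Huh7 (2.51 to 4.77) and 4.01 in Huh7-C (2.98 to 5.39). Between the Hep3B cultures it differed by a factor of 2.31 (1.25 to 4.28) and between the Huh7 cultures by 1.16 (0.749 to 1.79).

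In PRC1, RING1 was called up in Hep3B-C while BMI1 and RNF2 were called down. BMI1 (Entrez 648; chromosome 10, 22321211 to 22331484, on the plus strand) had 167 counts in Hep3B (57.7 CPM), 66 in Hep3B-C (14.2 CPM), 78 in Huh7 (17.2 CPM) and 62 in Huh7-C (14.3 CPM). Only Hep3B was above 20 CPM. The log2 fold-change was -2.01 in Hep3B-C (SE 0.21, FDR 5.4e-24) and -0.26 in Huh7-C (SE 0.25, FDR 0.47). Relative to the median of all genes the Hep3B-C value was -1.46, and with GC and length trends removed it was -0.38 (FDR 0.13). The adjacent gene COMMD3, from which transcription can run into BMI1, had 83, 60, 181 and 88 counts in Hep3B, Hep3B-C, Huh7 and Huh7-C, highest in Huh7.

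RING1 (Entrez 6015; chromosome 6, 33208495 to 33212722, on the plus strand) had 154 counts in Hep3B (53.2 CPM), 496 in Hep3B-C (107 CPM), 283 in Huh7 (62.4 CPM) and 201 in Huh7-C (46.4 CPM). It was the only member with its highest level in Hep3B-C. The log2 fold-change there was 1.004 (SE 0.13, FDR 8.2e-15), on the threshold itself, and with 5 added to each count it was 0.98, no longer called. In Huh7-C it was -0.43 (SE 0.13, FDR 0.0049), and -0.31 with GC and length trends removed (FDR 0.058). The transcript of RING1 is the shortest of the members, at 1738 bases, and has the highest GC content, at 61.6%. Relative to the median of all genes the Hep3B-C value was 1.56, and with GC and length trends removed it was -0.15.

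RNF2 (Entrez 6045; chromosome 1, 185045364 to 185102608, on the plus strand), the other ubiquitin ligase of PRC1, had 100 counts in Hep3B (34.5 CPM), 68 in Hep3B-C (14.6 CPM), 101 in Huh7 (22.3 CPM) and 125 in Huh7-C (28.8 CPM). The log2 fold-change was -1.23 in Hep3B-C (SE 0.23, FDR 9.1e-08) and 0.37 in Huh7-C (SE 0.19, FDR 0.14). Relative to the median of all genes the Hep3B-C value was -0.68 and with TMM library sizes -0.75, both short of the threshold, and with GC and length trends removed it was 0.44. The level of RING1 per that of RNF2, each per length, was 3.15 in Hep3B (interval 2.45 to 4.05), 14.9 in Hep3B-C (11.6 to 19.2), 5.72 in Huh7 (4.56 to 7.19) and 3.29 in Huh7-C (2.63 to 4.11). It was 4.74 times as large in Hep3B-C as in Hep3B (interval 3.31 to 6.77) and 0.574 times as large in Huh7-C as in Huh7 (0.417 to 0.789). Ratios between genes of unlike length and GC content are subject to the same trends as the fold-changes.

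**Figure D3:**
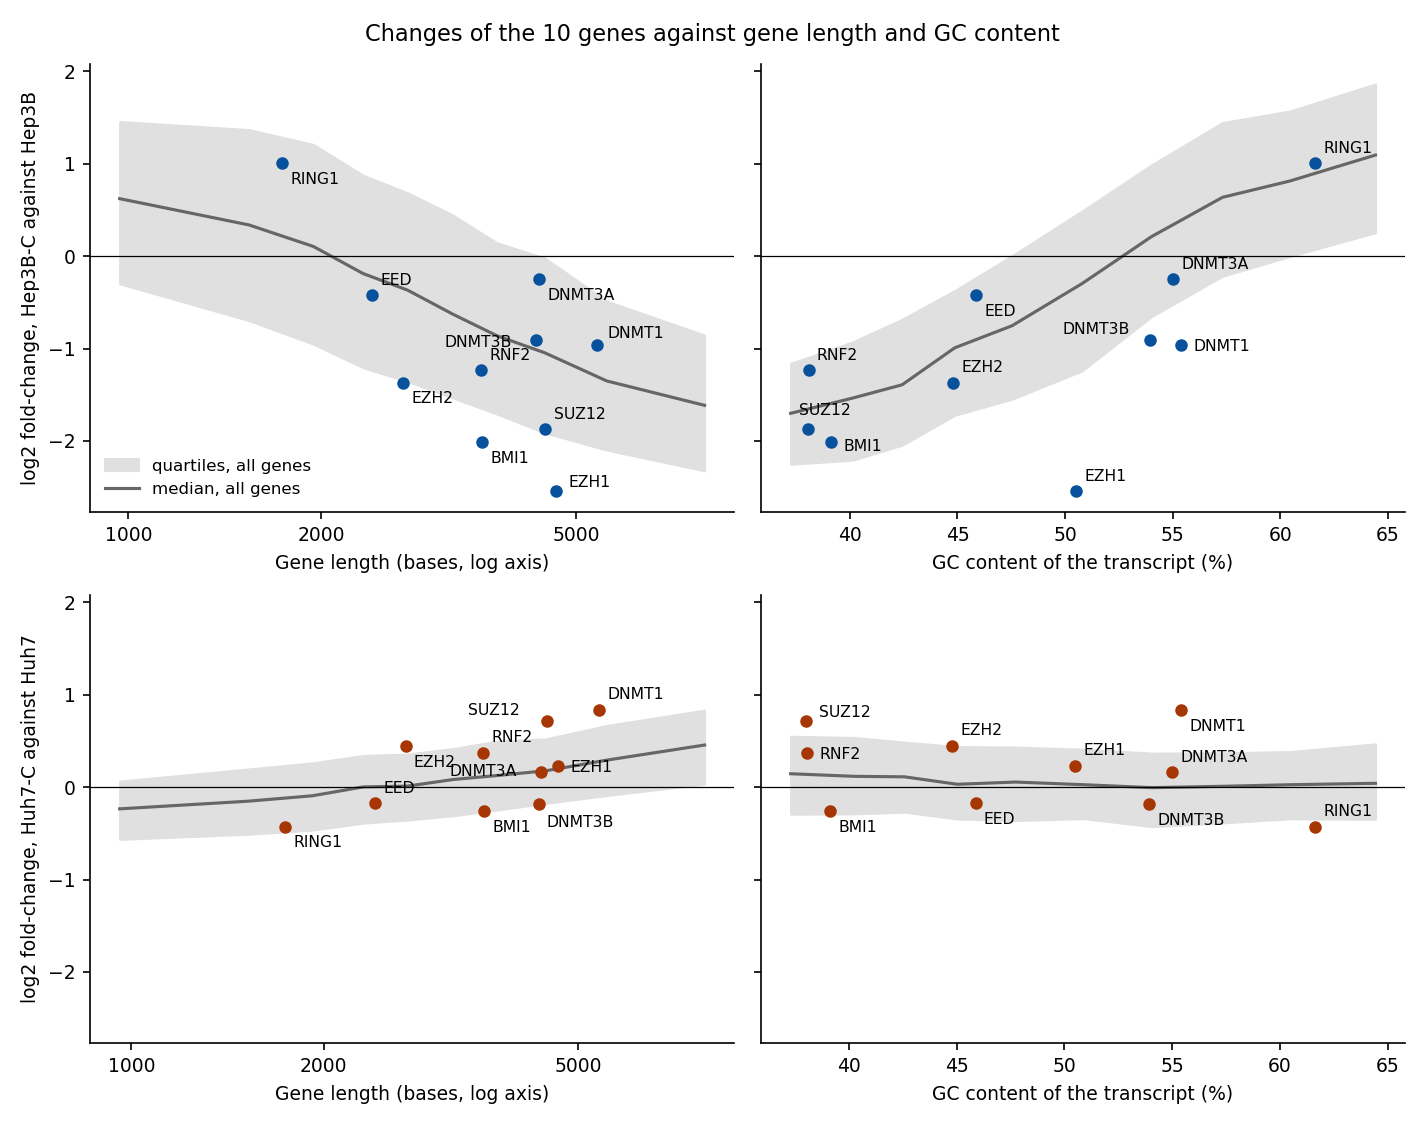
Log2 fold-change of the 10 genes (points) against gene length in bases on a log axis (left) and transcript GC content in percent (right), for Hep3B-C (top) and Huh7-C (bottom), over the median (line) and quartiles (grey band) of all genes in bins. In Hep3B-C, SUZ12, BMI1 and RNF2, at 38.03 to 39.12% GC, and RING1, at 61.6% GC, lie within the band of genes of like GC content, whereas EZH1 lies far below it.

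**Figure D4:**
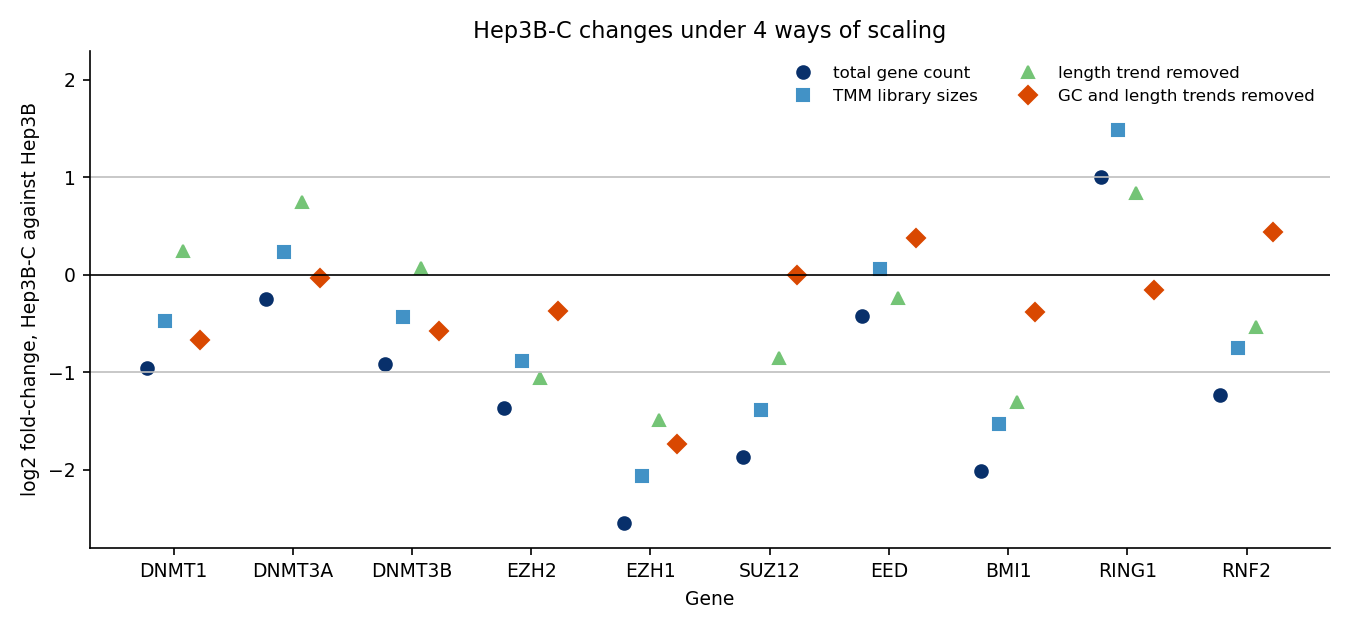
Log2 fold-change of each gene in Hep3B-C against Hep3B under 4 scalings, with grey lines at the threshold of 1. With GC and length trends removed, 9 of the 10 genes lie between -0.67 and 0.44, and EZH1 lies at -1.73.

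The change was next compared between the parental lines, as the log2 fold-change in Hep3B-C minus that in Huh7-C, with a Wald test on Poisson variances. The difference was called, at the same thresholds, for 7 of the 10 genes, 6 of them lower in Hep3B-C and 1 higher. Among all 13917 genes in both pairs 39.9% were called, 26.5% lower and 13.4% higher. It was -2.78 for EZH1 (SE 0.49, FDR 5.5e-08), -2.59 for SUZ12 (SE 0.22, FDR 2.8e-30), -1.82 for EZH2 (SE 0.25, FDR 1e-12) and -1.79 for DNMT1 (SE 0.094, FDR 7.9e-79). For RING1 it was 1.43 (SE 0.19, FDR 1.6e-13). With GC and length trends removed, 2 of the 10 were called, both lower in Hep3B-C. The share of all genes called in that setting is not given here, and the 39.9% does not apply to it. No difference was called for DNMT3A (-0.41, SE 0.29, FDR 0.22), DNMT3B (-0.73, SE 0.23, FDR 0.0035) or EED (-0.25, SE 0.37, FDR 0.59).

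Levels were also set against each other across the parental lines. In Huh7 against Hep3B, 6 of the 10 genes were called down and none up, where 27.2% of all genes were called down and 16.3% up. The log2 fold-change was -2.98 for DNMT3A, -2.799 for SUZ12, -1.74 for BMI1, -1.68 for DNMT1, -1.42 for EZH2 and -1.37 for DNMT3B. In Huh7-C against Hep3B-C, DNMT3A (-2.57, SE 0.20, FDR 2.2e-54) and RING1 (-1.202, FDR 1.2e-24) were called down and EZH1 (2.13, FDR 2.5e-08) up, where 29.8% of all genes were called, 12% down and 17.8% up. DNMT3A was called lower in both of these comparisons. BMI1 (0.01, FDR 1), DNMT1 (0.12, FDR 0.11) and SUZ12 (-0.21) were not called between the stem-like cultures. These comparisons share libraries with those within the lines and are not independent of them. GC and length trends were removed within the pairs only. Values across the lines are thus uncorrected, and the part of such trends in them was not tested.

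A joint test over both parental lines asked whether any member set the HCSC group apart from the HCC group beyond the variation between pairs. In edgeR, with a block for the parental line, the quasi-likelihood test called 4 genes up (0.0342%) and 5 down (0.0428%) among 11691 at an adjusted p of at most 0.05, none of them a member. The lowest unadjusted p of a member was 0.27, for BMI1 (log2 fold-change -0.98), so 0 of 10 were under 0.05, as also with DESeq2, where the lowest was 0.31. The fit left 1 residual degree of freedom, with a common biological coefficient of variation of 0.514.

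Genes that act with or against the members were examined in 4 lists of 48 genes in all, also chosen with earlier results known. Of the 48, 5 were called up and 25 down in Hep3B-C, whereas in Huh7-C 8 were called up and 1 down. Among all genes the shares were 13.2% up and 30.4% down in Hep3B-C, and 4.19% up and 4.15% down in Huh7-C, so that the 5 of 48 called up in Hep3B-C were near the share of all genes. The counts of single lists below are to be read against the same shares. The partners and erasers of DNA methylation comprised 14 genes, of which 1 was called up and 7 down in Hep3B-C (median log2 fold-change -1.36), and 3 up and 1 down in Huh7-C (median 0.59). All 3 TET genes, the dioxygenases that oxidise methylcytosine, were called in both pairs, lower in Hep3B-C and higher in Huh7-C. TET1 had 134 counts in Hep3B, 44 in Hep3B-C, and 29 in Huh7 against 179 in Huh7-C (log2 fold-change -2.28 and 2.67). TET2 had 174, 43, 18 and 50 counts in the same order (-2.68 and 1.52), and TET3 334, 134, 35 and 100 (-1.99 and 1.57). In each, Hep3B and Huh7-C were high within their pairs. With GC and length trends removed the Hep3B-C values were -0.03 for TET1, -0.45 for TET2 and -0.73 for TET3, none called. In Huh7-C, TET1 (2.17) and TET3 (1.03) were still called and TET2 (1.001) was not. MBD4, a glycosylase that removes thymine left by deaminated methylcytosine, was the 1 partner gene called down in both lines, from 128 to 80 counts (-1.36) and from 172 to 68 (-1.27). With GC and length trends removed it was no longer called in Hep3B-C (-0.25), while it was in Huh7-C (-1.23). MBD3, a subunit of the NuRD complex, was called up in Hep3B-C (312 to 1386 counts, 1.47), but not with GC and length trends removed (0.48).

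Accessory subunits of PRC2 comprised 8 genes, with 1 called up and 3 down in Hep3B-C (median -0.68) and 1 up in Huh7-C (median 0.51). AEBP2, a cofactor of the complex, went from 169 to 65 counts in the Hep3B pair (-2.05) and from 29 to 62 in the Huh7 pair (1.15). PHF19, a Polycomb-like subunit, went from 72 to 266 in the Hep3B pair (1.198). RBBP4, a histone-binding subunit, had the lowest value in Huh7-C, -0.01. Of 18 partners of PRC1, 2 were called up and 9 down in Hep3B-C (median -1.10), and 1 up in Huh7-C (median -0.04). Within this list CBX6, a chromobox reader of the PRC2 mark, had the highest value in Hep3B-C (34 to 385 counts, 2.802) and PHC3, a Polyhomeotic subunit, the lowest (351 to 68, -3.04). BCOR, of a variant PRC1, was called down in Hep3B-C (-1.75) but up in Huh7-C (1.09), and YAF2 had the lowest value in Huh7-C (38 to 17 counts, -1.07, FDR 0.025, not called).

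Of 8 antagonists of Polycomb, 1 was called up and 6 down in Hep3B-C (median -1.75), and 3 up in Huh7-C (median 0.44). KMT2A, a methyltransferase of histone H3 at active genes, had 851 counts in Hep3B, 304 in Hep3B-C, and 280 in Huh7 against 817 in Huh7-C (-2.16 and 1.61). KMT2D, of the same family, had 744, 371, 207 and 472 (-1.68 and 1.25), and ASXL2, a partner of the H2A deubiquitinase BAP1, 228, 84, 110 and 307 (-2.12 and 1.54). BAP1 itself was called up in Hep3B-C (117 to 433 counts, 1.203). USP16, another H2A deubiquitinase, had the lowest value in Huh7-C (-0.23, FDR 0.35). Opposite calls in the pairs were found for 8 of the 48 genes (16.7%), against 2.45% of all genes in both pairs. The 8 transcripts were long, from 5660 to 19419 bases, with a median of 9630.5 beside 2858 for all genes. With GC and length trends removed, a correction of these lists chosen after the data had been seen, 0 of the 48 had opposite calls. Among the 13917 genes in both pairs, 114 had them in that setting. KMT2D (-1.05), CBX6 (2.07) and PHF19 (1.08) were still called in Hep3B-C, whereas PHC3 (-0.33) and BAP1 (0.89) were not. In that setting, 6 of the 48 genes were called up and 7 down in Hep3B-C, where 1756 of all genes were called up and 1759 down. In Huh7-C, 3 of the 48 were called up and 3 down, beside 422 and 609 of all genes.

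**Figure D5:**
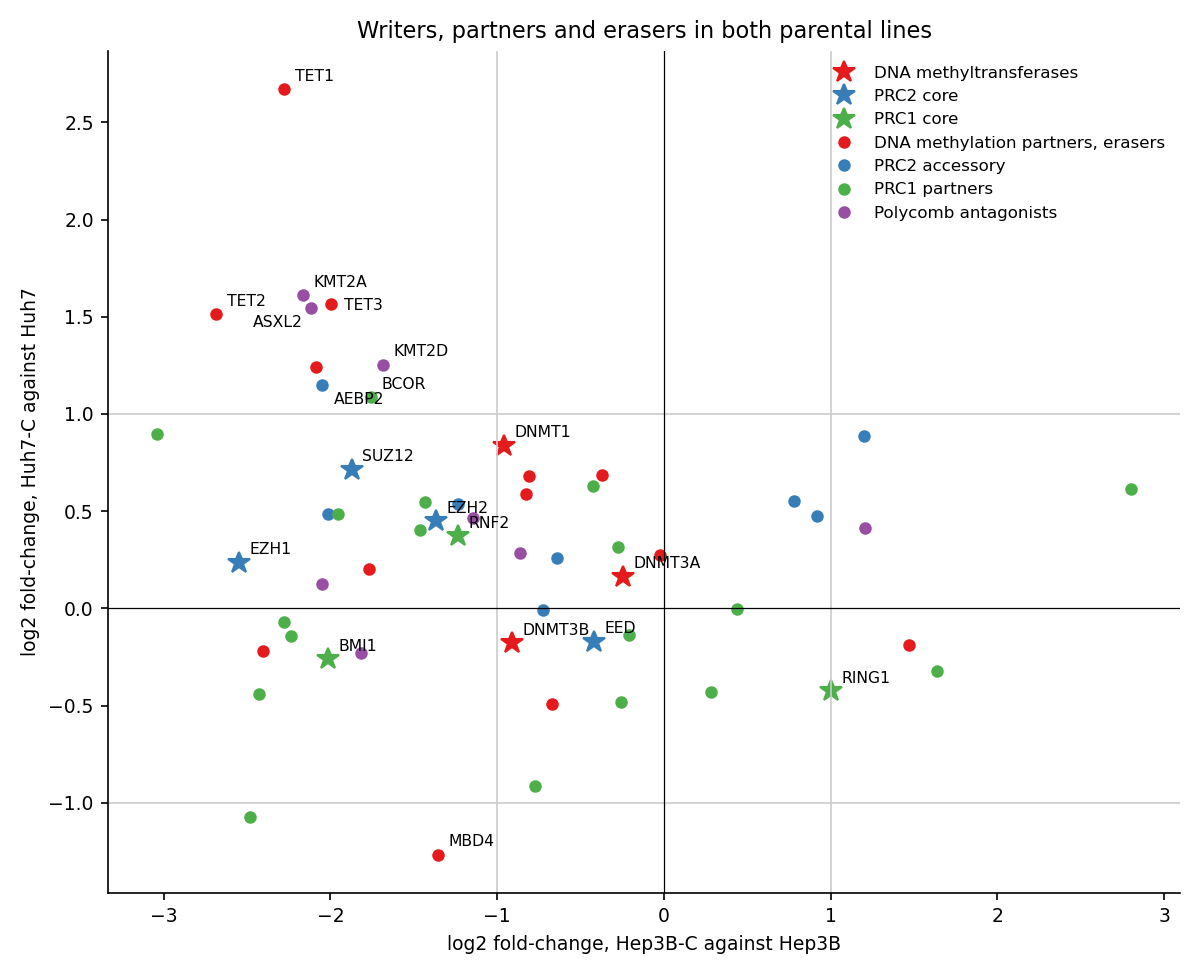
Log2 fold-change in Hep3B-C (horizontal) against that in Huh7-C (vertical) for the 10 members (stars) and their partners and antagonists (circles), with grey lines at the thresholds of 1. Labelled circles were called in both pairs. 8 of them lie at upper left, and MBD4 lies at lower left.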

How the data were processed

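RNA sequencing libraries from total RNA of 4 cultures (1 library each) were sequenced by the authors on an Illumina instrument, mapped with NextGENe (NCBI Build 36.1 of the human genome) and counted per transcript. The deposited values were raw read counts per gene, with Entrez ID and gene length. The annotation, the handling of reads with several matches and strand were not given in the sources used here. The authors also used RPKM, which was recomputed here from count, length and total gene count. Genes without a read in a pair are not listed in its files and were taken as 0.

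The HCSC and HCC libraries of each parental line were compared with the Audic-Claverie test (smaller tail doubled, Benjamini-Hochberg over all genes, FDR at most 0.01, absolute log2 fold-change at least 1, 0.5 added to each count). Standard errors are those of Poisson counts. Labels name no separate cultures of a line, so p-values measure sampling noise only. Differences between the pairs were tested with a Wald test. The joint comparison used edgeR 4.0.16 (TMM, filterByExpr, parental line as block), and the alternatives DESeq2 1.42.0. Pairing came from the cell line names. Deviations from the group means correlated within a line (0.616 over 11691 genes). Each group held a single library of each line, so this value is the same for both lines by construction. Trends in GC content and length were removed with cubic splines of 5 knots over genes with at least 20 counts, which also centres fold-changes. GC content was from GENCODE release 29 (GRCh38), for 99.2% and 99.3% of the genes of the pairs. Positions are annotation only, since the reads were mapped to an older build. Scripts ran in Python 3.11.15 and R 4.3.3 and were tested on simulated data.

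The members and lists were chosen with earlier results of these data known. From each further list, other than the markers of cell types, genes called in both pairs and the highest and lowest fold-change of each pair (at least 20 counts) were named. For DNMT1, EZH2 and BMI1, 3 genes of the most similar pattern were chosen, of which 1 is not reported here. Other genes are said to be chosen later where they are named.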

Additional observations from a re-analysis of the deposited data

Results flagged for a closer look

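The change between a stem-like culture and its parental line differed between Hep3B and Huh7 for 7 of the 10 genes (Wald test of the difference on Poisson variances, FDR at most 0.01 and an absolute difference of at least 1). The log2 fold-change in Hep3B-C minus that in Huh7-C was -1.79 for DNMT1, -1.82 for EZH2, -2.78 for EZH1, -2.59 for SUZ12, -1.75 for BMI1 and -1.61 for RNF2. It was 1.43 for RING1. Across all genes in both pairs 39.9% were called by this test before any trend was removed. With GC and length trends removed, the differences of EZH2 (-0.84), SUZ12 (-0.54), BMI1 (-0.02), RING1 (0.16) and RNF2 (0.16) no longer passed the thresholds. Variation between cultures was not measured, so the test sets these differences against counting error alone.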

How the results depend on the processing

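Calls depended on the scaling of the Hep3B pair. Genes called up and down in Hep3B-C, 2043 and 4708, were 3056 and 3134 with TMM library sizes and 3164 and 3015 with DESeq2 size factors, which brought the median of all genes from -0.55 to -0.07 and -0.02 (Huh7-C: from 0.06 to 0.02 and -0.0055). Down calls were 2739 with the length trend removed and 1759 with GC and length trends removed. An assumed biological coefficient of variation (BCV) of 0.4 left 62 up and 169 down, and 13 and 12 in Huh7-C, where 0.2 left 97 and 161 of 620 and 614. Members called down in Hep3B-C, 5, were 3 with TMM, with DESeq2 size factors and with the length trend removed, 1 with GC and length trends removed and 0 at a BCV of 0.4. The 1 member called up, RING1, was not called with 5 added to each count, with either trend removal or at either BCV (0 members up). No member was called in Huh7-C under any alternative run. Signs in Hep3B-C turned with TMM for DNMT3A (0.24) and EED (0.063), with DESeq2 size factors for the same genes (0.28 and 0.11), with the length trend removed for DNMT1 (0.25), DNMT3A (0.75) and DNMT3B (0.070), and with GC and length trends removed for SUZ12 (0.0028), EED (0.38), RNF2 (0.44) and RING1 (-0.15). Differences between the lines turned for DNMT3A (0.11) and EED (0.28) with TMM, and for EED (0.48) and RNF2 (0.16) with GC and length trends removed, which left 2 members lower and 0 higher. The share of all genes called in that last setting is not given here, so this count has no background beside it.

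The joint test with the replicate block called 4 up and 5 down. Without the replicate block, 0 and 0 passed (124 genes at an unadjusted p under 0.05), and DESeq2 with the block gave 6 and 9. Without a count filter 8 were called down, and with total gene counts as library sizes 3. Leaving out 1 library, without the block, gave 0 to 11 up and 0 to 18 down, with the lone library assumed to vary like the other group. The up calls reached 11 without Huh7-C and the down calls 18 without Hep3B-C, and both were 0 without Hep3B or without Huh7. The cause of these shifts was not tested. Values over both lines without replicate 1 or 2 are those of the other pair.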

Other observations

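Genes known to be silenced by Polycomb or by DNA methylation were read as a further set. Of 15 Polycomb target genes, 9 were listed in the Hep3B pair, 5 of them with at least 20 counts. In Hep3B-C 2 were called up and none down, where 13.2% of all listed genes were called up and 30.4% down. With so few genes measured, these counts are too small to set against those shares. The cell cycle inhibitor CDKN1C had 128 counts in Hep3B and 488 in Hep3B-C (log2 fold-change 1.25), and CDKN2A, named after its values were seen, had 217 and 810 (1.22). Neither was called with GC and length trends removed. The lowest value there was that of HOXA10, with 19 and 13 counts (-1.21, FDR 0.027). In Huh7-C the body patterning gene HOXA13 was called up, from 44 to 98 counts (1.21), and HOXD13 down, from 52 to 17 (-1.52). With GC and length trends removed 1 gene was called in each direction there too, beside 422 up and 609 down of all genes.

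Of 20 germline genes that DNA methylation keeps silent in most tissues, 12 had no count in either Hep3B culture. MAGEA12 was the 1 gene called in Hep3B-C, from 7 to 51 counts (2.10), where 13.2% of all genes were called up. None was called in Huh7-C, where 8.33% of all genes were called. Only 2 of the 20 genes had at least 20 counts in the Hep3B pair and 5 in the Huh7 pair, so these counts say little. Among genes with at least 20 counts in the Hep3B pair, MAGEA6 had the lowest value (4 to 20 counts, 1.51, FDR 0.061). MAGEA4 had 0 counts in both Hep3B cultures, and 2193 in Huh7 against 2318 in Huh7-C, so it separated the parental lines and not the cultures. MAGEA genes are near-identical copies, and the division of reads among them is uncertain.

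Of 15 proliferation genes, 4 were called up and 4 down in Hep3B-C, whereas 3 were called up in Huh7-C. Among all genes 13.2% were called up and 30.4% down in Hep3B-C, close to the share of the list called down, and 4.19% up in Huh7-C. MCM7, of the replicative helicase, was called up in both (1.37 and 1.08). MCM2 had the highest value in Hep3B-C (399 to 1925 counts, 1.59), still called with GC and length trends removed (1.25). PCNA had the lowest value in Huh7-C (-0.19, FDR 0.093, not called). MKI67 was called in opposite directions, from 2480 to 1433 counts in the Hep3B pair (-1.47) and from 1415 to 3885 in the Huh7 pair (1.52), and so was CDK1 (-1.43 and 1.58). Neither had opposite calls with GC and length trends removed, where MKI67 was called in neither pair (0.42 for Hep3B-C, 0.91 for Huh7-C) and CDK1 was called only in Huh7-C (-0.16 and 1.68). With GC and length trends removed, 5 of the list were called up and 0 down in Hep3B-C, beside 1756 and 1759 of all genes.

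Among 5929 genes with at least 50 counts in every library, genes near DNMT1 in pattern over the 4 libraries (Euclidean distance of centred log2(CPM + 1) values) included KIAA0020 (0.0952) and CLASRP (0.114). Nearest to EZH2 were ZNF7 (0.0635), IREB2 (0.0647) and GSTCD (0.0688), and nearest to BMI1 were DCUN1D1 (0.104), SMARCA1 (0.105) and DOPEY1 (0.114). With 4 libraries many genes share a pattern by the order of the libraries alone.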
